A study of Mus musculus with 281 samples.

Results

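Cells that the submitters labelled tpMo were compared with cells labelled Ly6C+GMP across all genes of the deposited table. The cell type label alone chose the members: 31 tpMo cells and 95 and 10 Ly6C+GMP cells from separate stretches of the sample titles, together 136 of the 281 single cells in the series. C57BL/6 mice, an inbred strain, gave the marrow, and RNA of each sorted cell was read by SMART-seq2, which copies and sequences whole transcripts. The Ly6C+GMP gate held cells without lineage markers or Sca-1 that carried c-Kit, CD34, high CD16/32 (a pair of Fc receptors) and Ly6C, a protein on the surface of monocytic cells; GMP stands for granulocyte-monocyte progenitor. The tpMo gate held lineage-negative cells with CD115 (the receptor for macrophage colony-stimulating factor), CXCR4 and Ly6C but without c-Kit. The labels do not spell tpMo out; marrow cells with this surface phenotype have been described as transitional pre-monocytes.

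In the bone marrow, granulocyte-monocyte progenitors give rise to neutrophils and monocytes. The progenitors make large amounts of the proteases and the peroxidase that are packed into primary (azurophilic) granules, and they divide and build ribosomes. Cells that mature along the monocyte branch are known to lose c-Kit and these granule transcripts and to gain lysozyme, lysosomal proteases, Fc-receptor adaptors, adhesion proteins and the chemokine receptor CCR2, through which monocytes leave the marrow.

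Values are TPM, a transcript level per transcript length relative to the total of the cell, so levels can be compared between genes. Each sample was 1 cell, and the labels tie no cell to an animal. A label is therefore a single sample without replicates, so nothing was tested, and an SD measures how cells of a label vary. A difference is the mean of log2(TPM + 1) over tpMo cells minus that over Ly6C+GMP cells; a gene was called higher or lower in tpMo at 1 log2 unit or more, and was taken as detected from 1 TPM upwards. Sample titles fall into stretches called title runs here, to which the labels give no meaning. Run C held all 31 tpMo cells and 10 of the Ly6C+GMP cells, and run A held the other 95 Ly6C+GMP cells. Over all cells the label and the title run therefore cannot be fully told apart, and each difference is given over all cells and then against the 10 Ly6C+GMP cells of run C.

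A median of 3082 genes was detected per tpMo cell (2408 to 4363), against 4829 per Ly6C+GMP cell (3951 to 5719) and 4918 in those of run C. The 20 most abundant genes took similar medians of TPM over all cells, 18.5% in tpMo and 17.9% in Ly6C+GMP cells, but 22.2% in Ly6C+GMP cells of run C. The median gene differed by −0.50 (−0.47 in run C). Against the 11 Ly6C+GMP cells with no more detected genes than the highest tpMo cell it differed by −0.21, but these cells still had 3951 to 4343 genes, a number that 4 of the 31 tpMo cells reached or passed.

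The monocyte markers Lgals3, Ctss, Fn1 and Lyz2 were high in tpMo cells, while transcripts of the gated proteins followed the gates only in part. Kit was detected in 0 of 31 tpMo cells, which allows a share of up to 9.68% of cells. Kit was detected in 87 Ly6C+GMP cells (82.9%, exact 95% interval 74.3 to 89.5%, counting error only) and in 9 of the 10 of run C. Kit is the gene of c-Kit, on which the cells were sorted, so its difference of −4.79 (−5.19 in run C) is no finding. Ly6c2, one of the genes of Ly6C, had a median of 9552 TPM in tpMo and 8424 TPM in Ly6C+GMP cells, and differed by 0.16 (0.14 in run C). Csf1r, the gene of CD115, was detected in 22 of 31 tpMo cells and in 59 Ly6C+GMP cells (56.2%), of which 2 were among the 10 of run C. Cxcr4, the gene of the CXCR4 on which tpMo cells were gated, was low in both labels, with medians of 4.48 and 4.20 TPM. Cd34, the gene of the CD34 on which Ly6C+GMP cells were gated, was detected in 5 of the 10 of run C, at a median of 0.86 TPM.

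Of 12057 measured genes, those that averaged 1 TPM or more in tpMo or in Ly6C+GMP cells, 385 (3.19%) were higher in tpMo cells and 3968 (32.9%) were lower. Against the Ly6C+GMP cells of run C, 654 (5.42%) were higher and 4104 (34%) lower, and 338 (2.8%) were higher and 3116 (25.8%) lower in both. As log2 ratios of mean TPM, which genes detected in few cells enter with their full mean, 2113 were higher and 4028 lower; after centring on the median gene the counts were 792 and 2533. The lists are therefore read beside the shift of the median gene.

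**Figure D1:**
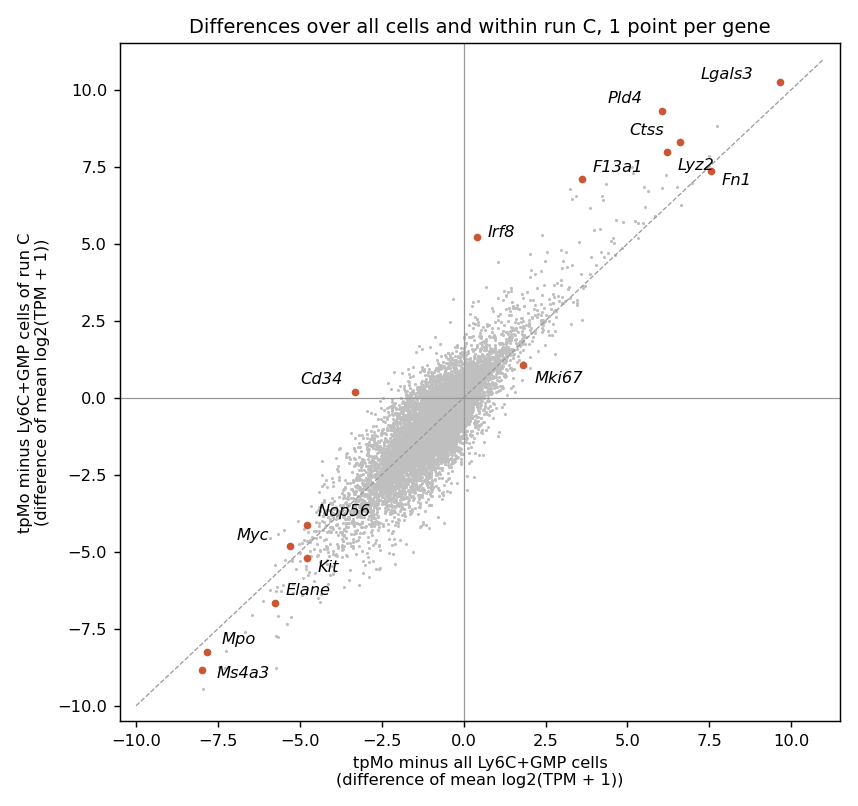
Difference between tpMo and Ly6C+GMP cells for each measured gene in log2 units, over all Ly6C+GMP cells (x axis) and against the 10 Ly6C+GMP cells of title run C (y axis), with named genes labelled and the diagonal drawn. Lgals3 (9.66 and 10.24) lies at the upper right and Mpo (−7.83 and −8.24) at the lower left, while Irf8 (0.41 and 5.20) and Cd34 (−3.33 and 0.20) lie off the diagonal.

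The 15 genes with the largest higher differences in both sets of cells were Lgals3, Ifi30, Lsp1, Fn1, Crip1, Ctss, S100a6, Plp2, Lyz2, Slfn2, Pld4, Itgb7, Lilrb4, Ccr2 and Irf5. Their differences ran from 5.53 to 9.66 over all cells and from 5.90 to 10.24 in run C. Each was detected in at least 24 of the 31 tpMo cells. Those were the genes ranked on this very comparison, so their size is a description. They hold secreted and lysosomal proteins, adhesion and chemokine receptors, actin-associated proteins and 1 transcription factor gene.

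Lgals3 (chromosome 14, 47367751 to 47386160, plus strand, GRCm38) encodes galectin-3, a sugar-binding protein of monocytes and macrophages. It lay between 148 and 8676 TPM in tpMo cells, with a median of 3017 TPM. In Ly6C+GMP cells it lay between 0 and 704 TPM with a median of 0, and in those of run C the highest value was 11.1 TPM. The groups overlapped at their edges: 29 of 31 tpMo cells were above every Ly6C+GMP cell, and all 31 were above every one in run C. The difference was 9.66 (10.24 in run C).

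Lyz2 (chromosome 10, 117277331 to 117282321, minus strand), the gene of the lysozyme of phagocytes, was the most abundant of the 15. Its level in tpMo cells ran from 6126 to 108528 TPM around a median of 53623 TPM, which alone was 5.36% of a cell's TPM. Ly6C+GMP cells ran from 14.6 to 17127 TPM with a median of 583 TPM, and those of run C from 31.4 to 681 TPM with a median of 212 TPM. Every Ly6C+GMP cell had some Lyz2, so the difference of 6.21 (7.98 in run C) was one of degree. Only 3 Ly6C+GMP cells were above the lowest tpMo cell, and none of these were in run C.

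Fn1 (chromosome 1, 71585520 to 71653200, minus strand) encodes the matrix protein fibronectin. The median was 434 TPM in tpMo cells, with 3 cells below 1 TPM and a highest value of 1822 TPM. Only 6 Ly6C+GMP cells (5.71%) had 1 TPM or more, the highest of them 130 TPM, and the highest in run C was 1.35 TPM. Fn1 was thus near absent from Ly6C+GMP cells and present in most tpMo cells, with a difference of 7.55 (7.37 in run C).

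Ctss (chromosome 3, 95526786 to 95556403, plus strand), which encodes the lysosomal protease cathepsin S, ran from 0 to 3929 TPM in tpMo cells with a median of 885 TPM. Ly6C+GMP cells reached 886 TPM, but their median was 1.30 TPM, and the highest of run C had 4.80 TPM. The high Ly6C+GMP values of Ctss, like those of Pld4, came from run A. Pld4, a lysosomal nuclease gene, had a median of 1082 TPM in tpMo cells and 2.05 TPM in Ly6C+GMP cells, whose maxima were 1006 TPM over all and 2.92 TPM in run C. Ccr2 had a median of 544 TPM against 1.07 TPM, with a highest Ly6C+GMP value of 1043 TPM (168 TPM in run C) and a difference of 5.61 (6.72 in run C).

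**Figure D2:**
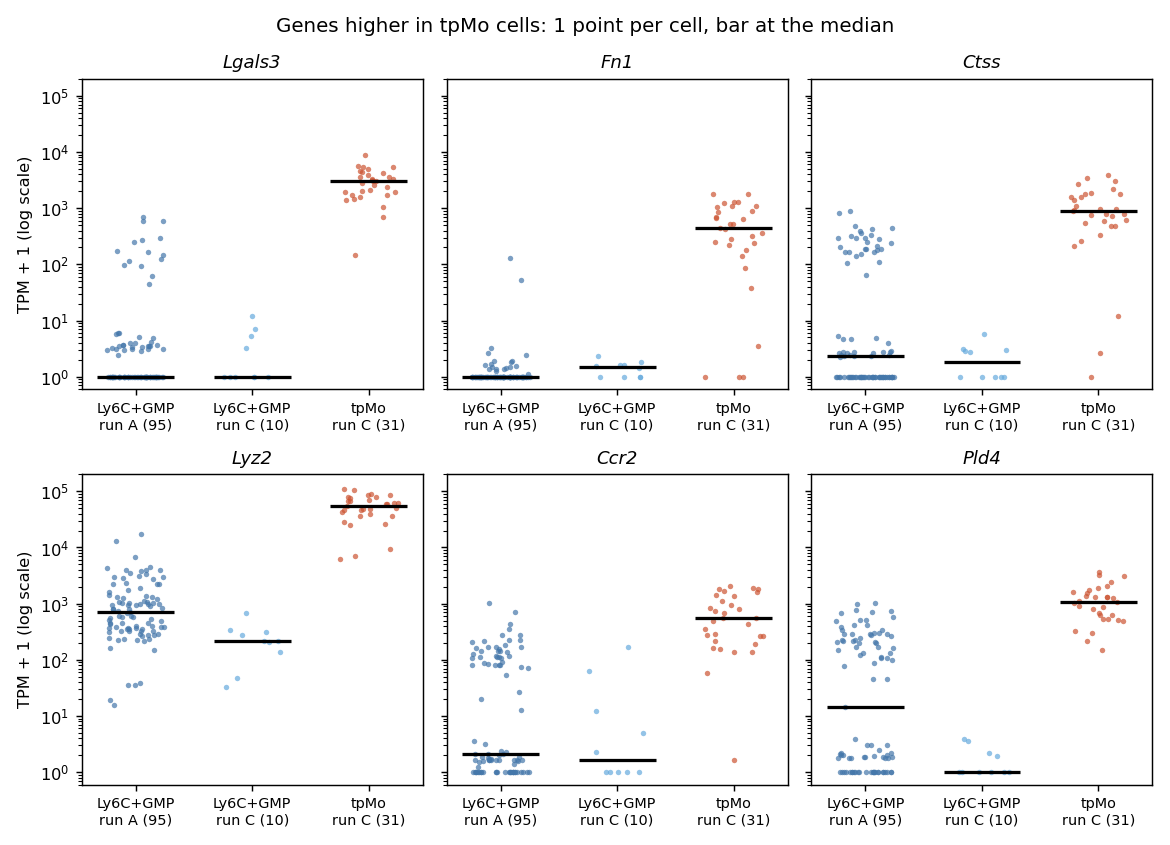
TPM + 1 on a log axis for Lgals3, Fn1, Ctss, Lyz2, Ccr2 and Pld4 in each of the 95 Ly6C+GMP cells of run A, the 10 of run C and the 31 tpMo cells; each point is a cell and each bar a median. The tpMo points of Lgals3 and Lyz2 stand almost clear of both Ly6C+GMP sets, while Ctss, Ccr2 and Pld4 have run A cells that reach into the tpMo range.

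Several of these genes were also abundant in preNeu cells, the early neutrophil cells of the series, all in run C. Lyz2 averaged 46321 TPM there, Plp2 712 TPM and Lgals3 518 TPM. The preNeu mean was under 1 TPM for 7 of the 15: Ifi30 (0.52 TPM, against 1074 TPM in tpMo cells), Fn1 (0.57 TPM), Ctss (0.42 TPM), Pld4 (0.69 TPM), Itgb7 (0.083 TPM), Ccr2 (0.38 TPM) and Irf5 (0.88 TPM). These genes encode a lysosomal thiol reductase (Ifi30), an integrin chain (Itgb7) and an interferon regulatory factor (Irf5), beside those named above.

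Among 30 genes of lysosomal proteases and hydrolases, 12 were higher and 4 lower (15 and 5 in run C), with a median of 0.21 (0.96 in run C). Over all measured genes the shares were 3.19% higher and 32.9% lower (5.42% and 34% in run C), with a median of −0.50 (−0.47). The list took a median of 1.63% of TPM in tpMo cells (0.966 to 2.40%) and 0.737% in Ly6C+GMP cells (0.353 to 1.16%), with little overlap. Psap, the precursor of the saposins that help degrade sphingolipids, had a median of 3183 TPM against 264 TPM and differed by 4.24 (6.43 in run C). Ctsc, which encodes cathepsin C, the protease that activates granule proteases, differed by 3.31 (6.46), with a median of 760 TPM against 122 TPM. Lamp1, a gene of the main glycoproteins of the lysosomal membrane, had a median of 816 TPM against 123 TPM and differed by 3.45 (3.0). Going the other way, Cd63, a tetraspanin of lysosomes and primary granules, was detected in 10 of 31 tpMo and 95 Ly6C+GMP cells (90.5%) and differed by −5.74 (−8.77), and Gaa, which encodes acid alpha-glucosidase, differed by −2.73 (−2.23).

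Lamp1 shows the E-box CACGTG, a letter sequence read by basic helix-loop-helix factors that act on lysosomal genes and by Myc. The 250 bases before its RefSeq start (GRCm38.p6, chr8:13158911-13159160, plus strand) are printed because they hold 4 copies, in capitals, which begin 61, 45, 28 and 15 bases before the start.

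Lamp1: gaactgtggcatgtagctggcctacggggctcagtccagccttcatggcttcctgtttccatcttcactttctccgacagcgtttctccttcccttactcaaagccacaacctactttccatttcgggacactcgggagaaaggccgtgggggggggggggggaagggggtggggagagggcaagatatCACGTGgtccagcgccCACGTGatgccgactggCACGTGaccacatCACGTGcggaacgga

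The letters read the same on both strands and were found in 6.02% of 32851 RefSeq promoters of that length, in 8.40% of those of measured genes and in 6 of 26 lysosomal ones (23.1%). The 6 genes did not share a direction: Lamp1 and Lgmn were higher (Lgmn, the gene of the protease legumain, by 1.84), Gaa was lower, and Ctsa (−0.58), Ctsd (−0.76) and Ctsl (0.25), all genes of cathepsins, were within 1 log2 unit over all cells. A match is a description of the letters, not of binding.

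Phagocyte oxidase and antimicrobial genes were higher in 9 of 20 and lower in 3, with a median of 0.67 (1.05 in run C). The shares over all measured genes were 3.19% higher and 32.9% lower (5.42% and 34% in run C). Cybb, the catalytic subunit of the NADPH oxidase, had a median of 495 TPM in tpMo and 93.2 TPM in Ly6C+GMP cells and differed by 3.0 (4.21). Cyba, its membrane partner, differed by 1.69 (1.77), while the cytosolic subunit genes Ncf1 and Ncf4 differed by −2.42 (−1.75) and −0.053 (−0.088). Chil3, a chitinase-like protein of monocytes and neutrophils, differed by 5.24 (5.73), but its median of 1731 TPM in tpMo cells stood against 12676 TPM in the highest Ly6C+GMP cell, so the ranges overlapped widely.

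Of 25 phagocyte receptors and adaptors 8 were higher and 4 lower, and the list median was 0.54 (0.22 in run C). By comparison, 3.19% of all measured genes were higher and 32.9% lower (5.42% and 34% in run C). The higher members included the adaptor genes that pair with activating receptors. Tyrobp, which encodes DAP12, had a median of 1981 TPM against 425 TPM (difference 2.08, 2.62 in run C), and Fcer1g, the common Fc-receptor gamma chain, 1233 TPM against 208 TPM (2.98, 4.80). The paired immunoglobulin-like receptor genes Pira2 and Pirb differed by 4.83 and 4.61 (4.86 and 4.63). They belong to a family of near-identical genes among which reads are shared out by estimate, as does Lilrb4. Lower members were Trem3 (−5.20, −6.04) and the inhibitory lectin gene Clec12a (−2.89, −3.24), together with Fcgr3 and Fcgr2b, genes of the gated CD16/32.

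Monocyte matrix and coagulation genes were higher in 9 of 16 and lower in 2, with a median of 1.43 (2.15 in run C). For all measured genes, 3.19% were higher and 32.9% lower (5.42% and 34% in run C). F13a1, the A chain of coagulation factor XIII, was present in all 31 tpMo cells at 632 to 3712 TPM, with a median of 1840 TPM. Its median was 341 TPM over Ly6C+GMP cells but 2.40 TPM in those of run C, and the difference moved from 3.60 to 7.10. Tgfbi, a matrix protein gene, differed by 4.86 (5.70), with a median of 131 TPM against 0. Plac8, which is highly expressed in myeloid progenitors, was lower by −1.79 (−2.05).

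Of 29 genes of the cytoskeleton and motility, 16 were higher and 0 lower (17 and 0 in run C), with medians of 1.37 and 1.38. Among measured genes as a whole, 3.19% were higher and 32.9% lower (5.42% and 34% in run C). The list took 4.3% of TPM in the median tpMo cell (2.13 to 6.06%) and 1.64% in the median Ly6C+GMP cell (1.19 to 2.29%). Actb and Actg1, the cytoplasmic actins, differed by 1.43 and 1.38 (1.46 and 1.60), with an Actb median of 11910 TPM against 4229 TPM. Larger differences were seen for actin-binding proteins of leukocytes: Lsp1 by 7.47 (7.85) and Capg by 5.51 (6.85). Of 17 galectin, S100 and annexin genes, 9 were higher and 3 lower. S100a6 (6.52, 6.85), S100a4 (5.31, 5.66), S100a10 (5.13, 7.50) and its partner Anxa2 (4.21, 6.56) were higher, and Anxa3, Lgals9 and S100a1 were lower.

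Adhesion and chemokine receptor genes were higher in 7 of 23 and lower in 4, led by Itgb7, Ccr2 and Itgb2, the beta chain of the leukocyte integrins (3.59, 4.03 in run C). Beside the lists of this paragraph, 3.19% of all measured genes were higher and 32.9% lower (5.42% and 34% in run C). Cx3cr1, a receptor of later Ly6C-low monocytes, was detected in 6 of 31 tpMo cells, and Cd14, the lipopolysaccharide co-receptor, in 4 of 31. Interferon-response genes were higher in 7 of 25 and lower in 2, with a median of 0.19. Ifitm6 (4.56, 5.18), Ifitm3 (4.19, 4.73) and Ifi27l2a (4.05, 4.29) led them, while Isg15 was detected in 0 of 31 tpMo cells and 6 Ly6C+GMP cells. In the MHC class II list, 2 of 8 measured genes were higher: H2-DMa, a peptide-loading chaperone gene (2.39, 5.27), and Cd86, a co-stimulatory ligand (1.44, 1.60). The presenting molecules themselves were near absent, with H2-Aa at 0 in every cell of both labels and Cd74, the invariant chain, detected in 2 of 31 tpMo cells.

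Transcription factor genes differed unevenly. Of 22 monocyte factors, 4 were higher and 2 lower (8 and 4 in run C), and their median difference was 0.31 (0.42 in run C). Shares of all measured genes were 3.19% higher and 32.9% lower (5.42% and 34% in run C). Irf5 had a median of 348 TPM in tpMo cells and 0 in Ly6C+GMP cells. Klf4, a factor needed for monocyte differentiation, was detected in 25 of 31 tpMo cells and 15 Ly6C+GMP cells (14.3%), none of them among the 10 of run C (which allows a share of up to 30%), at a tpMo median of 8.50 TPM, and differed by 2.73 (3.35). Id2, an inhibitor of helix-loop-helix factors, differed by 3.29 (2.39). Spi1, the gene of PU.1, differed by −0.016 over all cells and 1.34 in run C, and Cebpb by 0.80 and 0.11.

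Irf8, which directs progenitors towards monocytes and dendritic cells, depended on the comparison cells more than any other factor named here. It had a median of 279 TPM in tpMo cells, where 28 of 31 had it, and 344 TPM over Ly6C+GMP cells, where 87 (82.9%) did. In run C, 2 of 10 Ly6C+GMP cells had it, at a median of 0. The difference was accordingly 0.41 over all cells and 5.20 in run C. Csf1r (1.46 and 3.57), Ly86, which encodes the partner protein of CD180 (2.03 and 4.66), and Ighm, an immunoglobulin heavy-chain gene transcribed in early myeloid cells (0.68 and 3.60), moved the same way. The 10 Ly6C+GMP cells of run C share their gate with 21 cells of that run labelled proneu, and how the gate was divided between these labels is not stated. Cd34 moved the other way: its median was 1.97 TPM in tpMo cells and 136 TPM over Ly6C+GMP cells, but 0.86 TPM in those of run C, and the difference went from −3.33 to 0.20.

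Of 19 progenitor transcription factors 9 were lower and 0 higher, with a median of −0.66 (−0.84 in run C), beside 32.9% of all measured genes lower and a median gene of −0.50 (−0.47 in run C). Myc, which drives growth and ribosome production, was detected in 15 of 31 tpMo and 100 Ly6C+GMP cells (95.2%), with medians of 0 and 229 TPM, and differed by −5.29 (−4.80). Of the 15 tpMo cells, 10 had at most 2.4 TPM and 5 had 110 TPM or more. Myb, needed in progenitors, had medians of 1.08 and 110 TPM and differed by −4.52 (−5.71). Gfi1, the gene of a repressor that acts in the neutrophil branch, was found in 0 of 31 tpMo cells, in 25 Ly6C+GMP cells (23.8%) and in 6 of the 10 of run C (−1.28, −3.23). Detection shares are not matched for the number of genes found per cell, which was lower in tpMo cells.

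The lower genes were led by members of the primary granule list, called primary granule genes here. They were 10 of the 15 with the largest lower differences: Ms4a3, Nkg7, Mpo, Prss57, Cst7, Srgn, Ctsg, Calr, Elane and Prtn3. Not every member encodes a granule protein (Calr does not), and the list was written with earlier results of these data known. The other 5 were Rgcc, Adssl1, G6pc3, Cd63 and Farsa. Differences of the 15 ran from −7.98 to −5.69 over all cells and from −9.44 to −6.15 in run C. All 14 genes of the primary granule list were lower in both sets, with medians of −6.30 and −6.86, where 32.9% of all measured genes were lower.

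Elane, Prtn3 and Mpo encode the neutrophil serine proteases elastase and proteinase 3 and the granule peroxidase. The 250 bases before each RefSeq start (GRCm38.p6) are printed because all hold GAGGAAGT, a form of the site read by PU.1, in capitals; it begins 85, 95 and 224 bases before the start. They lie at chr10:79886062-79886311 for Elane, chr10:79879417-79879666 for Prtn3 and chr11:87793534-87793783 for Mpo, all on the plus strand, and Elane and Prtn3 are thus neighbours.

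Elane: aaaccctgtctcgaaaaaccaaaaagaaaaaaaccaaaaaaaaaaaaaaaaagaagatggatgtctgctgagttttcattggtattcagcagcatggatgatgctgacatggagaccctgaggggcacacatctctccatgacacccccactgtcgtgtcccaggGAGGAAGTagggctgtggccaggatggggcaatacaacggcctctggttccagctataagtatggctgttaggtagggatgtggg

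Prtn3: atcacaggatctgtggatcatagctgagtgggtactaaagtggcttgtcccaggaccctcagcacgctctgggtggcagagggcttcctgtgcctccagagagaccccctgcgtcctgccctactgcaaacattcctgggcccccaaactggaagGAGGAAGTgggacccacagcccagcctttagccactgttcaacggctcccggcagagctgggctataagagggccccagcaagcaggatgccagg

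Mpo: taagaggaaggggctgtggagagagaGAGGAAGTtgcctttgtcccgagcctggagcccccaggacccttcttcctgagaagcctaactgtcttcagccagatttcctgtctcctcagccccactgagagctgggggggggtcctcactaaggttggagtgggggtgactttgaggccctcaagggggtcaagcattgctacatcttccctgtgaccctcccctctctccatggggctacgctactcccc

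On either strand, these letters were found in 2.44% of all 32851 promoters, in 2.83% of those of measured genes, and in 4 of 13 promoters of primary granule genes (30.8%), the fourth being that of Atp8b4. No promoter of the list held the C/EBP letters TTGCNNAA, which were found in 9.56% of all promoters. None of the 11 promoters of the 15 largest higher genes held GAGGAAGT. The absence of a match says only that the letters are not in the window.

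Mpo, the gene of myeloperoxidase, was detected in all 31 tpMo cells, from 14.4 to 25347 TPM with a median of 66.3 TPM. Ly6C+GMP cells ran from 8393 to 63471 TPM with a median of 34369 TPM, and the lowest of run C had 33901 TPM. Thus 3 of 31 tpMo cells reached the lowest Ly6C+GMP cell and none reached that of run C. The mean difference was −7.83 (−8.24 in run C).

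Elane kept more transcript in tpMo cells than Mpo did. Its tpMo values ran from 16.2 to 25159 TPM with a median of 532 TPM, against a Ly6C+GMP median of 25488 TPM. The lowest Ly6C+GMP cell had 87.1 TPM, which 21 of 31 tpMo cells reached; without that cell the lowest had 812 TPM, which 12 reached. In run C the lowest had 26932 TPM, and the groups did not overlap. Prtn3 had a median of 275 TPM in tpMo cells (3.47 to 4049 TPM) and 5170.5 TPM in Ly6C+GMP cells (1065 to 10992 TPM). Ctsg, which encodes cathepsin G, had medians of 17 and 5185 TPM. Elane, Prtn3 and Ctsg differed by −5.77, −5.69 and −6.47 (−6.65, −6.15 and −7.06 in run C).

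Ms4a3, a four-transmembrane protein gene that marks granulocyte-monocyte progenitors, differed most in this list over all cells. Its median was 3.76 TPM in tpMo cells and 2855 TPM in Ly6C+GMP cells, and 1 tpMo cell lay above the latter median. Nkg7, a granule membrane protein gene, and Srgn, the proteoglycan core that holds granule proteases, had medians of 3.08 and 8.58 TPM in tpMo cells against 1556 and 2686 TPM. Members that differed least were Atp8b4 (−2.84), Serpinb1a, an inhibitor of the serine proteases (−3.35), and Gstm1 (−3.53).

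**Figure D3:**
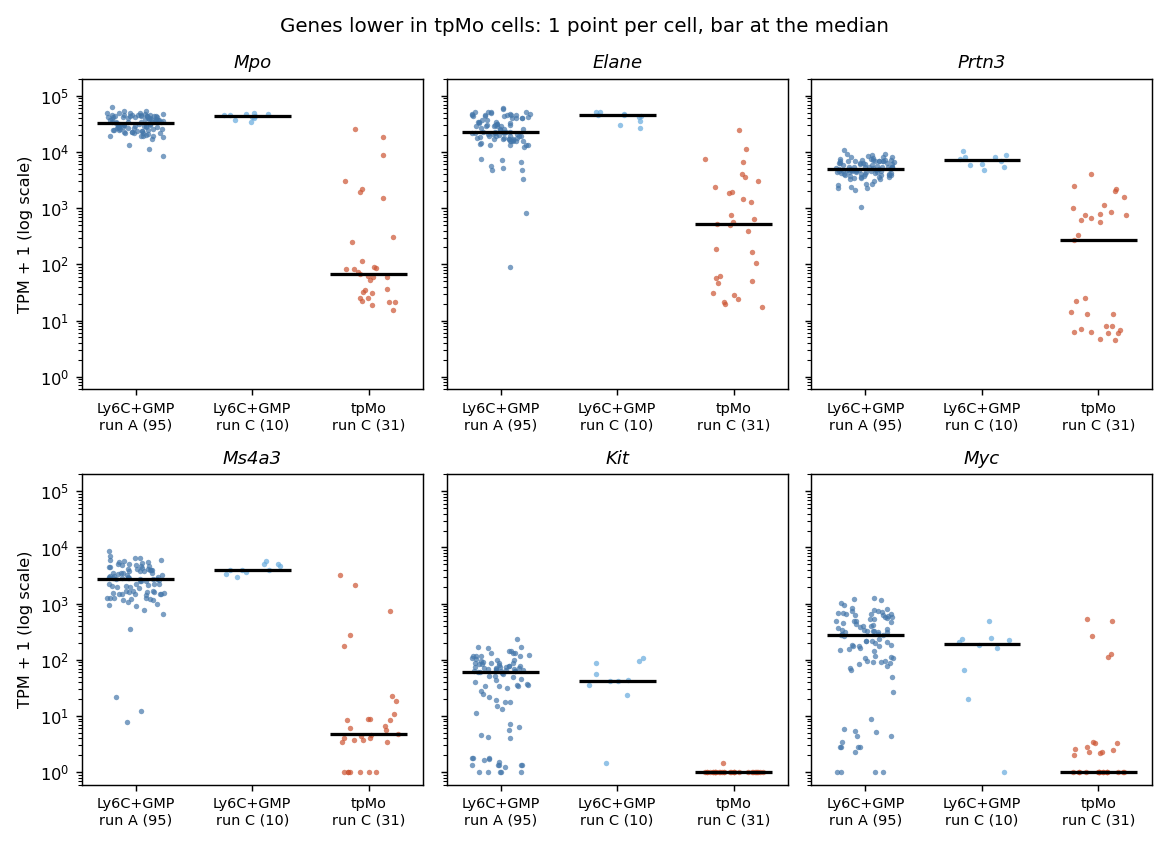
TPM + 1 on a log axis for Mpo, Elane, Prtn3, Ms4a3, Kit and Myc in the 95 Ly6C+GMP cells of run A, the 10 of run C and the 31 tpMo cells, with medians as bars. Mpo, Elane and Prtn3 form a tail in tpMo cells that reaches the range of the run A cells but not that of run C. Kit is below 1 TPM in all 31 tpMo cells.

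Summed over the list, primary granule genes took a median of 0.227% of TPM in tpMo cells, with a range of 0.0271 to 7.06%. In Ly6C+GMP cells they took 7.99% (1.29 to 15.2%), and in those of run C 12.5% (9.28 to 14.2%). Over all cells 4 of 31 tpMo cells reached the Ly6C+GMP range, and in run C none did. The proneu cells of run C, which share the Ly6C+GMP gate, had 12.7%, and preNeu cells 0.254%.

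**Figure D4:**
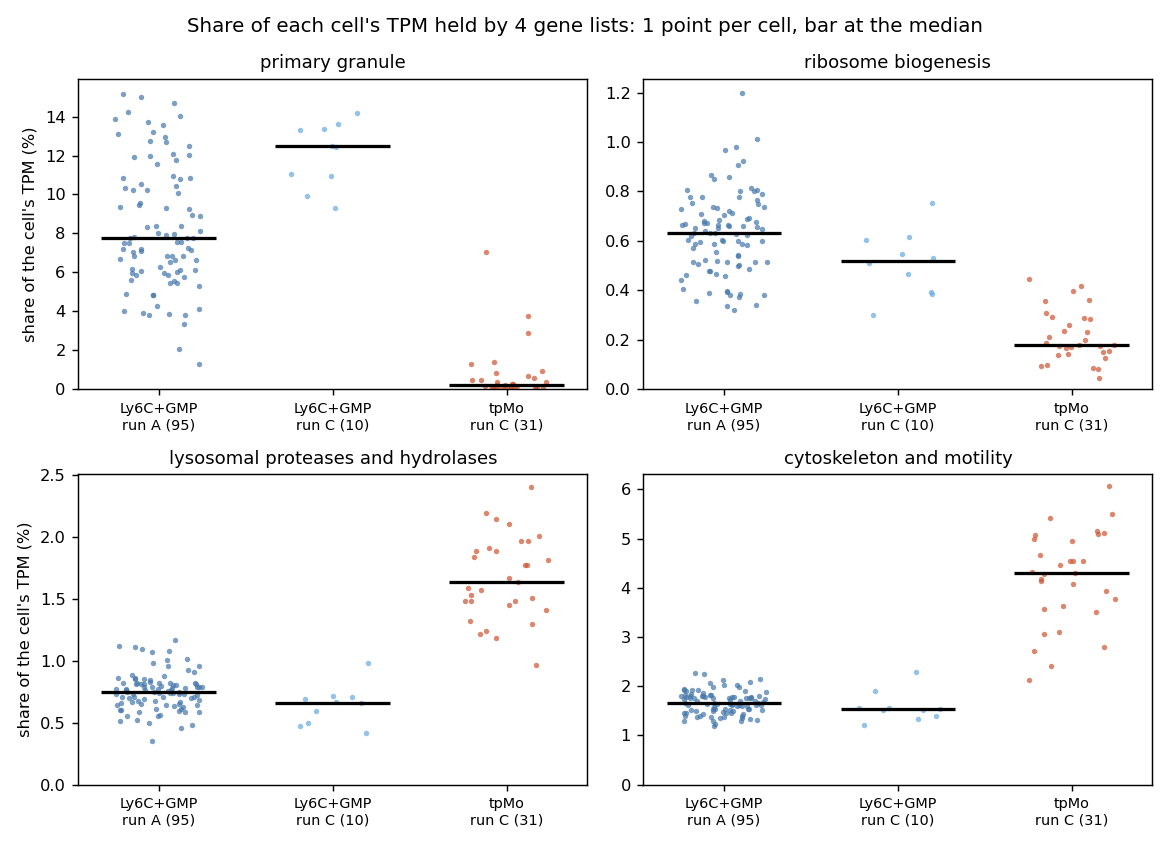
Percent of a cell's TPM taken by the primary granule, ribosome biogenesis, lysosomal, and cytoskeleton and motility lists, for 95 run A and 10 run C cells labelled Ly6C+GMP and 31 labelled tpMo; each point is a cell and bars are medians. Primary granule and ribosome biogenesis shares are lower in tpMo cells (medians of 0.227 and 0.180%), and lysosomal and cytoskeleton shares are higher (1.63 and 4.3%).

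The tpMo cells differed among themselves along the same genes. Across the 31 cells the primary granule share had a Spearman rho of −0.81 with Lyz2, −0.79 with Fn1, −0.46 with Ctss and −0.35 with Lgals3. These values are a description over cells that share the constraint of a fixed TPM total, and the share also had a rho of 0.70 with the number of genes detected and of 0.69 with the share of cytosolic ribosomal protein genes. Without the 3 cells highest in granule transcripts, rho with Lyz2 was −0.74 and with Fn1 −0.73 over 28 cells. In the same way, rho between the granule share and Lyz2 was −0.47 over all Ly6C+GMP cells. Little or no such order was seen with F13a1 (−0.13) or Csf1r (0.10).

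The 3 tpMo cells with the most granule transcript, at 7.06, 3.76 and 2.87% of TPM, were also the 3 lowest in Lyz2 (6126, 7105 and 9326 TPM). They had F13a1 at 882, 1755 and 1181 TPM, as other tpMo cells did. Lgals3 was 148, 1028 and 687 TPM in them, and Fn1 was 0 in the first and second and 182 TPM in the third. Ctss was 0, 210 and 955 TPM, Csf1r 0.51, 415 and 238 TPM, and Ccr2 0.67, 156 and 134 TPM. The first cell thus had Fn1, Ctss, Csf1r and Ccr2 all below 1 TPM. Cd34 was 1.97, 5.34 and 0.66 TPM, and Kit was below 1 TPM in all tpMo cells.

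Ribosome biogenesis genes were lower in 29 of 29 (25 in run C), with medians of −2.91 and −2.93. Of all measured genes 32.9% were lower (34% in run C). The median share of TPM was 0.180% in tpMo cells (0.0434 to 0.447%) and 0.623% in Ly6C+GMP cells (0.298 to 1.2%). Nop58 and Nop56, core proteins of the small nucleolar particles that guide methylation of ribosomal RNA, differed by −5.49 and −4.80 (−4.3 and −4.13), with Nop56 medians of 4.58 and 554 TPM. Wdr12, needed for the large subunit, was detected in 4 of 31 tpMo and 98 Ly6C+GMP cells (93.3%). The abundant nucleolar protein gene Npm1 had 723 against 2412 TPM (−1.99, −1.68). Cytosolic ribosomal protein genes, 79 in all, took 3.99% of TPM in the median tpMo cell and 6.15% in the median Ly6C+GMP cell.

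Other growth-related lists were lower by less. Of all measured genes 32.9% were lower (34% in run C), and the median gene differed by −0.50 (−0.47 in run C). Translation factors were lower in 15 of 20 (median −1.74), proteasome subunits in 17 of 24 (−1.31), nuclear genes of oxidative phosphorylation in 14 of 25 (−1.25) and glycolysis genes in 12 of 21 (−1.38), with 0 higher in each; run C medians were −1.40, −1.40, −1.40 and −1.70. The shares of TPM differed less than these medians, with 1.06% against 1.10% for the proteasome and 1.37% against 1.72% for glycolysis. Hk3, the hexokinase of myeloid cells, differed by −4.3 (−4.29), and Gpi1, glucose phosphate isomerase, by −3.32 (−3.58).

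Cell cycle transcripts were not absent from tpMo cells. DNA replication genes were lower in 17 of 30 and higher in 0, with a median of −1.11 (−1.02 in run C), and mitosis genes lower in 7 and higher in 2 of 28, with −0.27. For mitosis genes that is a smaller share than the 32.9% lower among all measured genes, whose median was −0.50. In run C, 16 of the 28 were lower and 2 higher, with a median of −1.25, where 34% of all measured genes were lower. The summed shares pointed the other way: 0.818% against 0.673% for DNA replication and 0.576% against 0.388% for mitosis, where the mitosis share of Ly6C+GMP cells in run C was 0.538%. Both lists together took 1.5% in the median tpMo cell and 1.13% in the median Ly6C+GMP cell, and no tpMo cell lay below the lowest Ly6C+GMP cell, while 2 lay below the lowest of run C. Their signs thus depend on whether logs are averaged over cells or levels are summed, and these measures part for genes that are high in some cells and near 0 in others.

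Ccnb1, the mitotic cyclin B1, was such a gene. It was at 100 TPM or more in 12 of 31 tpMo and 71 Ly6C+GMP cells, with medians of 2.31 and 220 TPM but means of 411 ± 886 and 325 ± 363 TPM (SD over the cells of each label). Mki67, a marker of cycling cells, was at 100 TPM or more in 16 of 31 tpMo and 9 Ly6C+GMP cells and differed by 1.82 (1.05). Rrm2, a subunit of ribonucleotide reductase, was detected in all cells of both labels, with a median of 809 against 439 TPM. Across tpMo cells the mitosis and DNA replication shares had a rho of −0.76, and across Ly6C+GMP cells one of −0.61.

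**Figure D5:**
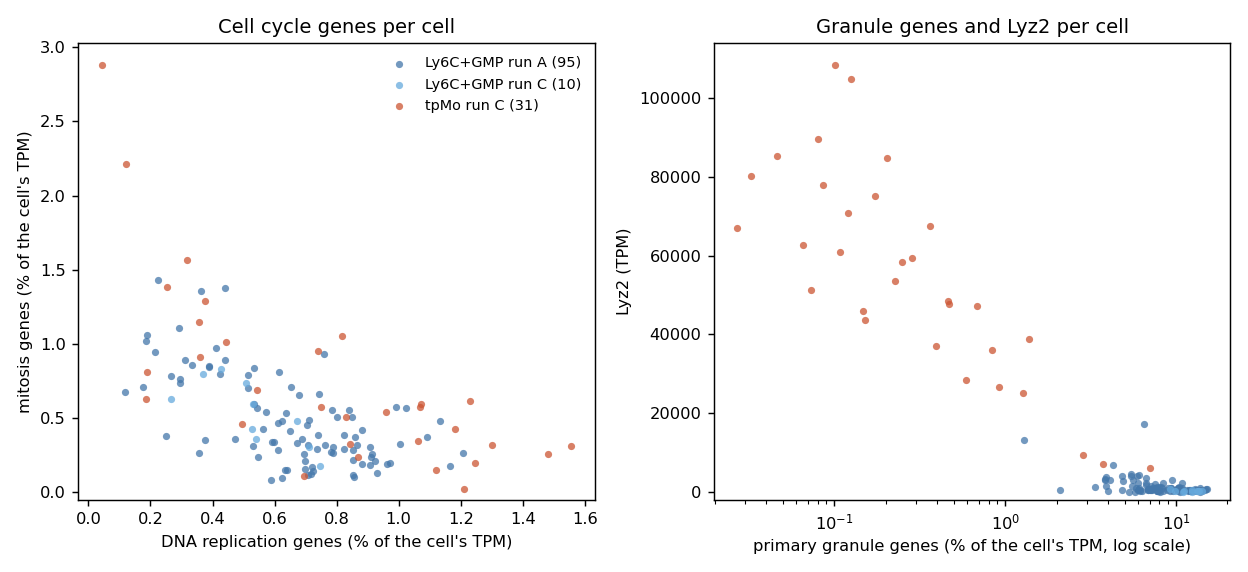
Left, percent of TPM in mitosis genes against that in DNA replication genes; right, Lyz2 (TPM) against percent of TPM in primary granule genes on a log axis; each point is one of the 31 tpMo or the Ly6C+GMP cells (95 in run A, 10 in run C). In both labels cells high in 1 cycle list tend to be low in the other (rho −0.76 and −0.61), and tpMo cells with more granule transcript have less Lyz2 (rho −0.81).

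Among regulators of the G1 phase, Ccnd2, the cyclin D2 gene, was detected in 0 of 31 tpMo cells and 91 Ly6C+GMP cells (86.7%), with a median of 44.1 TPM in the latter (−4.88, −4.63 in run C). Its partner kinase gene Cdk6 differed by −4.38 (−4.52), with medians of 67.3 and 515 TPM. The relative Ccnd3 was higher, with 891 against 261 TPM (2.17, 3.0). The inhibitor genes Cdkn1a and Cdkn2d differed by 2.78 and 1.64 (2.18 and 2.12), and E2f2 by 3.02 (3.28). Of 23 such regulators 6 were higher and 4 lower (9 and 3 in run C), with a median of 0.18 (0.32 in run C). Across all measured genes 3.19% were higher and 32.9% lower (5.42% and 34% in run C).

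Most markers of other marrow cells, those of the neutrophil lineage apart, were at 0 in tpMo cells. Of 13 T and NK cell markers 12 were at 0 in every tpMo cell, as were 10 of 15 erythroid and megakaryocyte, 10 of 14 dendritic cell, 10 of 12 B cell, 10 of 14 basophil, mast cell and eosinophil, and 8 of 12 macrophage markers. In the same order, 11, 6, 8, 6, 5 and 4 were at 0 in every Ly6C+GMP cell. Within run C these counts were 13, 14, 11, 9, 12 and 8, so the markers at 0 do not set tpMo cells apart. Such counts also depend on the number of cells. Of all 43280 symbols, 25450 were at 0 in every cell of the series. The summed level ran from 0 to 316 TPM for the T and NK list, to 149 TPM for the erythroid list, to 378 TPM for the dendritic cell list and to 462 TPM for the macrophage list. B cell markers summed to 2.50 to 3840 TPM, carried by Ighm, against 0 to 1870 TPM in Ly6C+GMP cells. Neutrophil lineage markers summed to a median of 375 TPM in tpMo cells (40.4 to 2934 TPM) and 287 TPM in Ly6C+GMP cells (18.4 to 62653 TPM). Of these 11 markers 1 was at 0 in every tpMo cell. Of the 10 measured, 2 were higher and 3 lower (5 and 3 in run C), with a median of 0.67 (0.54 in run C). Of all measured genes 3.19% were higher and 32.9% lower (5.42% and 34% in run C). In the basophil list, Ear2, a ribonuclease gene, reached 2343 TPM in 1 tpMo cell and was detected in 8 of 31, while Hdc, histidine decarboxylase, differed by −5.26 (−7.11). The part of other cells in these results was not tested.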

How the data were processed

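Marrow cells were sorted singly and each deposited sample is 1 cell. The authors deposited 1 table of TPM values with gene symbols; RSEM 1.2.19 and the build GRCm38 were used, per the submitters' processing notes, and for the aligner and annotation the sources used here give no name. The table held 43280 symbols, 25450 of them at 0 in every cell, and cell totals of 998703 to 1000000; TPM keeps no read depth, so the number of detected genes is its only measure here. Groups are those of the cell type label. No cell was left out and doublets were not called.

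Computed here, with Python 3.11.15, pandas 2.3.3, numpy 2.4.6 and scipy 1.17.1, were means of log2(TPM + 1) per label, with a pseudocount of 1 TPM that understates the difference of low genes, for genes that averaged 1 TPM or more in tpMo or in Ly6C+GMP cells. For shares of cells the 95% interval is the exact one of Clopper and Pearson. Intervals and the limit for 0 cells (3 cells of the total) cover counting error only. The calling of differences was tried on Ly6C+GMP cells split at random, with chosen genes of at least 50 TPM on average raised or lowered. Lower genes and a gap in detected genes between the sets were not covered. The 37 gene lists and the genes in them were chosen with earlier results of these data known.

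Genes named by rule were the 15 with the largest difference each way, ranked by the smaller of the all-cell and run C differences, with the same sign in both, a mean of at least 50 TPM and detection in 50% of cells of the higher label, at most 3 genes per list, those of largest difference that reached 5 TPM, and a list of markers and regulators. Predicted and ribosomal protein genes were left out of the first kind. Other list members were named after their values were seen, as were the promoters printed. Positions are from GENCODE M21 and promoters from RefSeq; promoter windows end at the RefSeq start, which can differ from the GENCODE start. RSEM shares reads of near-identical genes by estimate, and the protocol in the labels names no step that marks strand, so overlapping genes cannot be told apart.

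Alternatives were pseudocounts of 10 and 0.1 TPM, other filters on low values, ratios of mean TPM, scalings, single title runs, the whole Ly6C-positive gate of run C, Ly6C+GMP cells with no more detected genes than the highest tpMo cell, and leaving out the highest cell of each gene.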

Additional observations from a re-analysis of the deposited data

How the results depend on the processing

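No paired analysis was possible because each sample is 1 cell and the labels give no replicate numbers. In the alternatives below each result has a value and no test, and the causes of the changes were not tested.

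Over all cells 385 genes were higher and 3968 lower. These counts were 223 and 1574 with a pseudocount of 10 TPM, and 223 and 1269 among genes with a mean of at least 100 TPM, a filter chosen after seeing the data. As ratios of mean TPM 2113 were higher, 654 against run C, 660 against the whole Ly6C-positive gate of run C and 876 against the 11 Ly6C+GMP cells with no more detected genes than the highest tpMo cell. Centring on the median gene gave 792 and 2533. The higher share of all calls was 8.84% in the report, and 34.4% by ratio, 23.8% after centring, 22.4% against those 11 cells, 17.5% against the gate and 13.7% in run C.

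With a pseudocount of 10 TPM the primary granule median was −5.02, DNA replication −0.50 and ribosome biogenesis −1.59, and with 0.1 TPM they were −7.13, −1.76 and −4.61. By ratio of mean TPM they were −3.36, 0.18 and −1.63, with lysosomal genes at 0.98 and mitosis at 0.66, so that both cycle lists changed sign; mitosis also did with a pseudocount of 10 TPM (0.023), after centring (0.23) and against the gate (0.17). Run C gave 0.96 for lysosomal genes and −1.25 for mitosis, and the whole gate −0.51 for DNA replication and −2.27 for ribosome biogenesis. The 11 cells, which still had more detected genes than most tpMo cells, gave 0.95 for lysosomal genes, −2.10 for ribosome biogenesis and 1.36 for mitosis, whose sign again changed. The filter at 100 TPM gave 0.92 for lysosomal genes and −3.79 for ribosome biogenesis. The cytoskeleton median shifted by less than 1.5 times in each alternative that was run.

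Of named genes past 1 log2 unit in the report, 5 changed sign: Cdc20 (0.37) and Ccnb1 (0.34) by ratio, Cd34 (0.20 in run C, 0.0025 with the gate), Bcl2 (0.19 and 0.11) and mt-Co2 (0.15 in run C). So did 4 genes within 1 log2 unit: Spi1 (0.076 to 1.34, the highest in run C), Cebpa (−0.26 to −0.031), Irf8 (−0.12 by ratio and −0.097 against run A) and Flt3 (−0.048). Beside those sign changes of the 5 genes, over all alternatives, 1439 values of named genes shifted by less than 1.5 times and 509 by more. Of 52 shares of cells with detection, 15 left the 95% interval of the share in the report. With detection at 5 TPM the tpMo shares were 16.1% for Myc, 29% for Cd34, 51.6% for Klf4 and 45.2% for Ms4a3, and those of Ly6C+GMP cells 17.1% for Lgals3, 27.6% for Ctss, 1.90% for Fn1, 66.7% for Cd34 and 84.8% for Myc. At 0.1 TPM, Ccr2 was found in 100% of tpMo cells, and in Ly6C+GMP cells Kit in 95.2%, Fn1 in 23.8%, Ccr2 in 69.5%, Csf1r in 66.7% and Cd34 in 94.3%.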
